A study of Homo sapiens with 5 samples.

Results

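The 3 grainyhead-like transcription factor genes, 6 epithelial keratin genes and PROM2 were followed in HCT116, a human colorectal carcinoma cell line, after knockdown of ELK4, a transcription factor of the ETS family. RNA-seq was performed on 5 samples. The 2 control samples, labelled pLKO, carried the pLKO.1 lentiviral vector. The 3 knockdown samples, shELK4_1, shELK4_2 and shELK4_3, carried the same kind of vector with an shRNA against ELK4. The series describes 3 independent shRNAs, so each numbered shELK4 sample was read as 1 hairpin, and the hairpins were compared with the controls 1 by 1 as well as together. Infected cells were selected with puromycin, so all samples were stable populations of the same line, and the lowered ELK4 and an effect common to hairpins cannot be told apart. Nothing in the labels says whether the 2 pLKO samples came from separate transductions, so the spread between them may be technical. The 10 genes, GRHL1, GRHL2, GRHL3, PROM2, KRT7, KRT8, KRT18, KRT19, KRT23 and KRT80, were found by symbol among 20026 genes. They were selected from FPKM values of these same samples, so their knockdown values are given as a description without a test.

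Values are FPKM, the fragment count of a gene divided by the length of its transcript and by the mapped reads of the sample. Differences are on the log2(FPKM + 1) scale, where 1 equals a 2-fold change in FPKM + 1, and low values are compressed on it. All 10 genes were among the 10780 that reached 1 FPKM in 2 or more samples and were tested. The read depth behind the values is unknown. ELK4 itself was at 34.5% of its control level in the knockdown samples, with 38.7% for shELK4_1, 34.8% for shELK4_2 and 30.1% for shELK4_3. Among the epithelial markers, EPCAM was at 118 to 166 FPKM and CDH1, the gene for E-cadherin, at 10.3 to 23.1 across the 5 samples. The intestinal factor CDX2 was at 4.12 and 5.09 in the controls and lower in the hairpin samples, at 3.74, 3.51 and 3.54 (log2 difference −0.28, standard error 0.11, unadjusted p = 0.0389 and adjusted p = 0.282 from limma). The brush border marker VIL1 reached no more than 0.054 FPKM in any sample, so this marker of differentiated enterocytes was nearly absent.

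Grainyhead-like factors bind DNA as dimers and keep epithelial genes active, among them genes for cell junctions and for the skin barrier. GRHL2 is known for holding cells in an epithelial state through genes such as CDH1, GRHL1 for desmosomal genes, and GRHL3 for barrier formation and wound closure. Keratins are intermediate filament proteins that pair a type I with a type II chain. KRT8 (type II) with KRT18 or KRT19 (type I) forms the filaments of simple epithelia such as the intestine. KRT7 and KRT80 are further type II keratins, and KRT23 is a further type I keratin. PROM2 encodes a membrane protein of cell surface protrusions and is related to PROM1 (CD133).

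The start regions of GRHL3, PROM2 and GRHL1 are shown because these genes were above both controls in shELK4_1 and have a sequence window at the canonical start site. RefSeq windows on GRCh38.p14 run from 250 bases before to 50 bases after a start site, and windows of 4 of the 10 genes were searched. No window was searched for the other 6, which were GRHL2, KRT7, KRT18, KRT19, KRT23 and KRT80. Nothing is read from their absence here. In the GENCODE annotation of the same assembly, GRHL3 spans chromosome 1 from 24199558 to 24364482, PROM2 chromosome 2 from 95274449 to 95291308, and GRHL1 chromosome 2 from 9951693 to 10002277. All 3 lie on the plus strand. Their windows, each ending in the start of exon 1 of the canonical transcript, are chr1:24319107-24319406, chr2:95274199-95274498 and chr2:9951443-9951742. Capitals mark a GC box, CCCCGCCCC on either strand.
GRHL3: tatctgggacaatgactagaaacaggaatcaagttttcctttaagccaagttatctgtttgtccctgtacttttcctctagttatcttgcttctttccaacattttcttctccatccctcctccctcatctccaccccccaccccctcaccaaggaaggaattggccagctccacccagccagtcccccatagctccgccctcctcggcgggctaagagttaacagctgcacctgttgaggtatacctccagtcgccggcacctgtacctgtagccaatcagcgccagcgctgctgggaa
PROM2: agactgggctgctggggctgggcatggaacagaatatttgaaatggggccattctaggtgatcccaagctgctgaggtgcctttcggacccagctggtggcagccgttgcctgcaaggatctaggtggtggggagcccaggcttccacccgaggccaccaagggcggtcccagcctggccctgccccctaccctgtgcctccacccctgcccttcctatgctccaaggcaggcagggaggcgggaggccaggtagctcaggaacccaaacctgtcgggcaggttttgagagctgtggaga
GRHL1: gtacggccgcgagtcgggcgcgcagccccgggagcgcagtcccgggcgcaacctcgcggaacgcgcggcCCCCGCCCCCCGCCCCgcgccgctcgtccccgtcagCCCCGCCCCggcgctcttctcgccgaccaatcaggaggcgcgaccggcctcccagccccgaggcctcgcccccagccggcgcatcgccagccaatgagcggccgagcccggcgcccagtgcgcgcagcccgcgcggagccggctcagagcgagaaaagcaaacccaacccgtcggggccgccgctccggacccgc

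The GRHL1 window held 3 GC boxes, which start 181, 174 and 145 bases before the start site, with the first 2 overlapping. The GRHL3 and PROM2 windows held none. A GC box occurred in 15.7% of all 35116 windows. GRHL1 was also the richest in G and C, at 79.7% of bases, against 53.0% for GRHL3, 63.3% for PROM2 and a median of 58.7% over all windows. Neither the grainyhead site AACCGGTT (in 0.134% of all windows) nor the looser pattern AACNNGTT (3.52%) occurred in any of the 3 windows on either strand. The ETS site CCGGAAGT (4.14%) and the AP-1 site TGANTCA (7.71%) did not occur in them either. Of the searched strings, the KRT8 window (chr12:52926420-52926719, minus strand) held 1 ETS site, 59 bases before its start site. That start site lies 21393 bases from the start of the canonical KRT8 transcript, so the window belongs to another transcript. A second GRHL3 window, which starts 3683 bases from the first, held none of the strings. Such matches describe letters and not binding.

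GRHL3 had the widest spread of the 10 genes. Its FPKM was 2.59 and 1.75 in the pLKO samples, and 12.5 for shELK4_1, 0.535 for shELK4_2 and 1.25 for shELK4_3. The shELK4_1 sample stood above both controls, while the other 2 hairpins stood below both. Against the pLKO mean, GRHL3 was 5.77-fold for shELK4_1, 0.246-fold for shELK4_2 and 0.573-fold for shELK4_3. On the log2(FPKM + 1) scale the differences were 2.10, −1.03 and −0.49, a range of 3.14 between hairpins against a gap of 0.38 between the controls. The mean of the hairpins, 4.77 ± 6.73 FPKM (SD, n = 3), therefore describes none of them. The mean difference was 0.19 with a standard error of 0.86. In bulk RNA, more cells that express a gene and more of its RNA per cell cannot be told apart.

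GRHL1 showed the same order of hairpins over a smaller range. It was at 2.65 and 2.57 FPKM in the pLKO samples, and at 4.62 for shELK4_1, 2.27 for shELK4_2 and 3.03 for shELK4_3. The groups overlapped, since shELK4_2 lay below both controls and the other hairpins above. The differences from the pLKO mean were 0.64, −0.14 and 0.16.

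GRHL2 (chromosome 8, 101492439 to 101669726) was at 3.68 and 3.79 FPKM in the controls. It was at 4.38 for shELK4_1, 2.11 for shELK4_2 and 3.0 for shELK4_3. The shELK4_2 sample held 56.5% and the shELK4_3 sample 80.4% of the control level, while shELK4_1 held 117%. The differences on the log2 scale were 0.18, −0.61 and −0.24, and the controls differed from each other by 0.03.

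The make-up of the family differed between samples as well. Summed over the 3 genes, grainyhead FPKM was 8.92 and 8.11 in the controls, 21.5 for shELK4_1, 4.92 for shELK4_2 and 7.27 for shELK4_3. GRHL2 made up 41.2% and 46.7% of this sum in the controls, more than either relative. In shELK4_1, GRHL3 made up 58.2% and GRHL2 20.3%. In shELK4_2, GRHL3 made up 10.9%, GRHL1 46.2% and GRHL2 42.9%. No other annotated gene shares a 50-base word with the canonical transcript of any of the 3.

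PROM2 was, like GRHL3, high in shELK4_1 only. Its FPKM was 1.01 and 1.05 in the pLKO samples, 4.04 for shELK4_1, 0.962 for shELK4_2 and 1.08 for shELK4_3. The 2 other hairpins lay within 10% of the controls, at 93.5% and 105% of their mean, whereas shELK4_1 was 3.93-fold. On the log2(FPKM + 1) scale the difference in shELK4_1 was 1.31, and with a pseudocount of 0.1 in place of 1 it was 1.87. The related PROM1 was at 5.51 and 5.32 FPKM in pLKO cells and at 5.0, 5.53 and 4.71 in the hairpin samples, without a high value in shELK4_1.

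**Figure D1:**
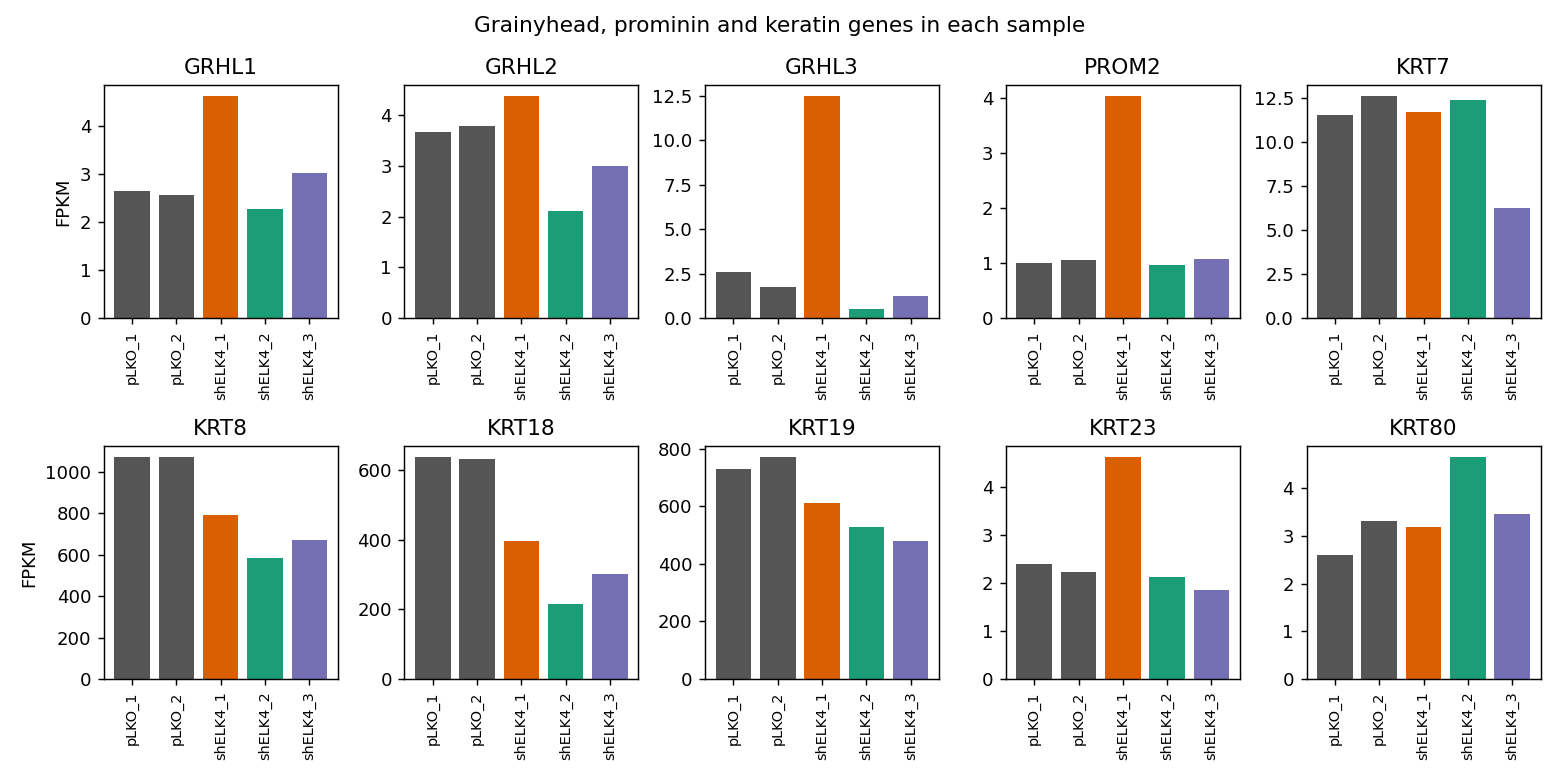
FPKM (linear axis from 0, a separate scale for each gene) of the 10 genes in the 2 pLKO samples (grey) and in shELK4_1 (orange), shELK4_2 (green) and shELK4_3 (purple), with 1 bar for each sample. GRHL3 reached 12.5 and PROM2 4.04 in shELK4_1 alone, while KRT8, KRT18 and KRT19 were lower than both controls in all 3 hairpin samples.

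KRT8, KRT18 and KRT19 were by far the most abundant keratins, and they were the only members without overlap between the groups. All 3 were lower in each hairpin sample than in either control. For the other 7 members the groups overlapped. Over all tested genes, the share without overlap was 21.0% for lower and 19.1% for higher values, or 40.1% in all. The choice of members used this contrast, and nothing is read from the count.

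KRT18 (chromosome 12, 52948871 to 52952906) stood lowest against its controls. Its FPKM was 639 and 634 in the pLKO samples, 397 for shELK4_1, 216 for shELK4_2 and 303 for shELK4_3. The hairpins held 62.3%, 33.9% and 47.7% of the control mean of 636 ± 4.15 (SD, n = 2). The log2 difference of the groups was −1.10 (standard error 0.23).

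KRT8 (chromosome 12, 52897187 to 52949954) lies beside KRT18 on the opposite strand. It was at 1071 and 1072 FPKM in the controls, 792 for shELK4_1, 583 for shELK4_2 and 670 for shELK4_3, which is 73.9%, 54.4% and 62.5% of the control mean. The order of the hairpins was that of KRT18, with shELK4_2 lowest in both genes. The log2 difference was −0.66 (standard error 0.13).

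KRT19 (chromosome 17, 41523617 to 41528308) was at 728 and 772 FPKM in pLKO cells and at 611, 529 and 478 in the hairpin samples in their numbered order. Here shELK4_3 was lowest, with 63.8% of the control mean. The log2 difference was −0.48 (standard error 0.12).

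Because FPKM is scaled to transcript length, the levels of these partners can be set side by side within a sample. There were 1.67 and 1.69 KRT8 units for each KRT18 unit in the controls, against 2.0 for shELK4_1, 2.70 for shELK4_2 and 2.21 for shELK4_3. The ratio of KRT19 to KRT18 was 1.14 and 1.22 in the controls and 1.54, 2.45 and 1.58 in the hairpin samples. KRT18 was thus the lowest of the 3 relative to its controls in every hairpin sample. The keratin KRT222 was left out of the sums by type. Summed over the type II and the type I keratins, the ratio was 0.787 and 0.768 in the controls. It was 0.790, 0.796 and 0.860 in the hairpin samples. The summed keratins took 0.784% and 0.785% of all FPKM in pLKO cells and 0.593%, 0.430% and 0.473% in shELK4_1, shELK4_2 and shELK4_3. KRT8 ranked 37th of all genes by FPKM in both controls and 67th in shELK4_2, and KRT18 ranked 62 and 65 in the controls and 172 in shELK4_2.

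KRT8 and KRT18 have many processed pseudogenes, and 39.2% of the 50-base words of the KRT8 transcript and 35.3% of those of KRT18 occur in other annotated genes. Pseudogenes of their own name account for 33 of 36 such genes for KRT8 and for all 43 for KRT18. The exons of the 2 genes also overlap, over 17.1% of the exonic bases of KRT18 and 7.63% of those of KRT8, and whether the counting used strand is not given in the sources used here. The values of these 2 genes are uncertain to that extent. For KRT19 the share of such words was 1.79%.

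**Figure D2:**
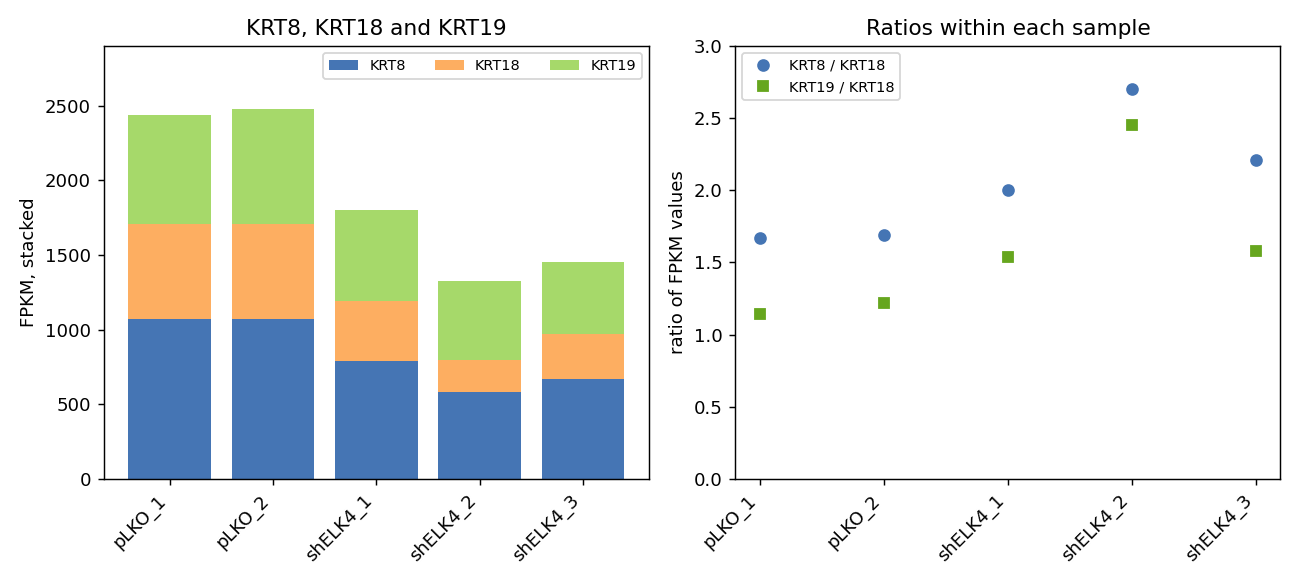
Left, FPKM of KRT8, KRT18 and KRT19 stacked for each of the 5 samples, with a linear axis from 0. Right, the ratio of KRT8 to KRT18 (circles) and of KRT19 to KRT18 (squares) within each sample. The stack was 2438 and 2477 in the controls and 1800, 1328 and 1451 in the hairpin samples, and both ratios were highest in shELK4_2.

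The less abundant keratins each had their own pattern. KRT23 (chromosome 17, 40922700 to 40937646) was at 2.39 and 2.22 FPKM in the controls, 4.63 for shELK4_1, 2.13 for shELK4_2 and 1.85 for shELK4_3. It was 2.01-fold in shELK4_1, or 0.77 on the log2(FPKM + 1) scale, and below both controls in the others.

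KRT7 (chromosome 12, 52232520 to 52252186) was at 11.5 and 12.6 FPKM in the controls. It was at 11.7 in shELK4_1 and 12.4 in shELK4_2, within the range of the controls, and at 6.23 in shELK4_3. Only the shELK4_3 sample lay outside that range, at 51.6% of the control mean.

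KRT80 (chromosome 12, 52168996 to 52192014) was at 2.59 and 3.32 FPKM in pLKO cells and at 3.19, 4.66 and 3.47 in the hairpin samples. It was highest in shELK4_2, at 1.58-fold, where KRT18 and GRHL2 were lowest. The gap between its controls, 0.27 on the log2 scale, was of the size of its mean difference of 0.26 (standard error 0.16).

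Counted by hairpin on the log2(FPKM + 1) scale, 2 members were at least 2-fold higher in shELK4_1 (GRHL3 and PROM2, but not KRT23 at 0.77), where 0.566% of all tested genes were, and none was 2-fold lower (0.362% of all). In shELK4_2, 2 members were at least 2-fold lower (KRT18 and GRHL3), where 0.826% of all genes were, and none was higher (0.343%). In shELK4_3, 1 member was at least 2-fold lower (KRT18, 0.566% of all) and none higher (0.232%). Without pLKO replicate 1, the count in shELK4_2 was 1. The shELK4_1 sample was the highest of the 3 hairpin samples for 8 members, all but KRT7 and KRT80. This was so for 29.8% of all tested genes. The shELK4_2 sample was lowest for 6 members and for 39.9% of all tested genes. The median difference of the members from the pLKO mean was 0.14 for shELK4_1, −0.32 for shELK4_2 and −0.36 for shELK4_3, and that of all tested genes was between −0.02 and 0.01. These counts rest on the contrast by which the members were chosen, and there is 1 sample for each hairpin.

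KRT8, KRT18 and KRT19 were without overlap whichever single sample was left out, while other members joined them in some of these settings. Without shELK4_1, 7 members had no overlap between groups, 6 lower and 1 higher, where 53.5% of all tested genes had none. The members added were GRHL2, GRHL3 and KRT23 on the lower side and KRT80 on the higher side. Without shELK4_2, 5 had none, with GRHL1 and PROM2 higher, against 56.6% of all tested genes.

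**Figure D3:**
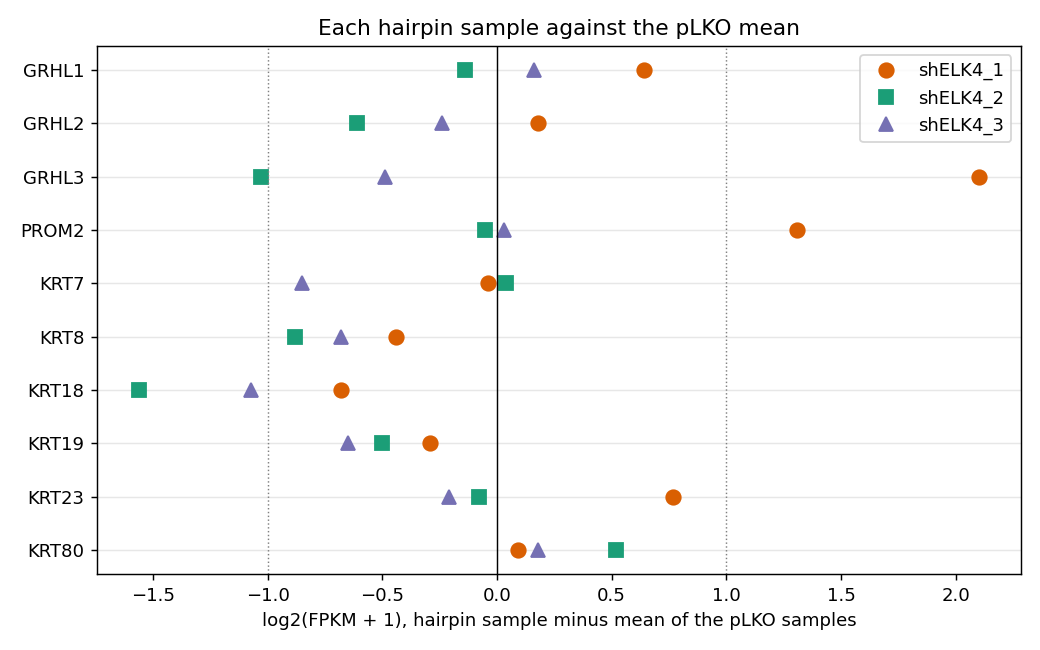
Difference of each hairpin sample from the mean of the 2 pLKO samples on the log2(FPKM + 1) scale, for the 10 genes, with circles for shELK4_1, squares for shELK4_2 and triangles for shELK4_3. Dotted lines mark a 2-fold change in either direction. GRHL3 ranged from −1.03 to 2.10, and KRT18 from −1.56 to −0.68.

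Profiles over the 5 samples were compared by the root mean square difference of log2 values, each taken relative to the gene's own pLKO mean, over 10646 genes with a mean FPKM of at least 1. The closest to GRHL2 were BICDL2 (0.039), DSP (0.043), TGFA (0.046) and RNF145 (0.052). Of the other members KRT19 was closest to GRHL2, at rank 3220 (0.285). DSP encodes desmoplakin, which ties keratin filaments to desmosomes. Its FPKM was 26.4 and 25.1 in the controls and 30.6, 17.0 and 21.6 in shELK4_1, shELK4_2 and shELK4_3, with differences of 0.24, −0.57 and −0.25 against 0.18, −0.61 and −0.24 for GRHL2. No gene came as close to GRHL3, but the measure is not scaled to the range between hairpins, which was 3.14 for GRHL3 and 0.79 for GRHL2. The nearest to GRHL3 were ATP8B1 (0.587), TNIK (0.606), WNT9A (0.625) and PROM2 (0.626), and each was highest in shELK4_1. With 5 samples and so many genes, close profiles are a description of these samples.

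The other genes of the epithelial system were taken from lists and tested across all genes with limma, where 18 of 10780 genes (0.167%) had an adjusted p under 0.05 and 16.2% an unadjusted p under 0.05. None of the 57 tested genes of these lists outside the 10 had an adjusted p under 0.05 from limma (0 of 57), and 10, CDX2 among them, had an unadjusted p under 0.05. Without shELK4 replicate 2, PLEC passed (adjusted p = 0.0481 from limma), and without shELK4 replicate 1 the number at an unadjusted p under 0.05 was 22, against 3 without pLKO replicate 2.

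Of 25 epithelial genes linked to GRHL2 in the literature, 24 were tested. By limma, 6 reached an unadjusted p under 0.05, 5 of them lower and 1 higher, and 9 had no overlap between groups, 8 lower and 1 higher, where 40.1% of all tested genes had none. The median difference was −0.30, against −0.0086 for all tested genes. By hairpin it was 0.08 for shELK4_1, −0.51 for shELK4_2 and −0.31 for shELK4_3. The shELK4_1 sample was the highest hairpin for 21 of the 24, and for 29.8% of all tested genes. The shELK4_2 sample was the lowest for 18, and for 39.9% of all tested genes. Of the members, GRHL1, GRHL2, GRHL3, PROM2, KRT8 and KRT18 also had shELK4_1 highest and shELK4_2 lowest.

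Among the genes without overlap were ST14, LSR and CLDN7. ST14, the membrane protease matriptase, was at 100 and 98.8 FPKM in pLKO cells and at 59.5, 30.5 and 43.1 in the hairpin samples (log2 difference −1.20, standard error 0.25, adjusted p = 0.115 from limma, 0.0566 to 0.846 under the alternatives). LSR, a protein of tricellular junctions, differed by −0.52 (standard error 0.10, adjusted p = 0.10 from limma, 0.0692 to 0.903 under the alternatives). CLDN7, a claudin, was at 91.7 and 95 FPKM in pLKO cells and at 86.8, 41.7 and 74.8 in the hairpin samples (log2 difference −0.52, standard error 0.29, adjusted p = 0.413 from limma). ST14 shared the hairpin order of KRT18. CDH1 overlapped between groups, with 20.5 and 20.3 FPKM in the controls, 23.1 for shELK4_1, 10.3 for shELK4_2 and 14.7 for shELK4_3.

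Of 21 genes for desmosomes and keratin linkers, 16 were tested, with a median difference of −0.049. Only PLEC reached an unadjusted p under 0.05. It encodes plectin (log2 difference −0.46, standard error 0.13, adjusted p = 0.17 from limma). There were 4 genes without overlap, all lower, namely PLEC, TCHP (−0.29), EVPL (−0.26) and PKP2 (−0.22), again beside 40.1% of all tested genes without overlap in either direction. The desmosomal gene PERP was at 58.2 and 57.8 FPKM in the controls, 107 for shELK4_1, 40.7 for shELK4_2 and 53.2 for shELK4_3, so that only shELK4_1 was above the controls. DSG1, DSG3, DSG4, DSC1 and PKP1, the forms of stratified epithelia, stayed under 0.1 FPKM in all samples, and DSC3 was at 2.99 to 5.59.

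**Figure D4:**
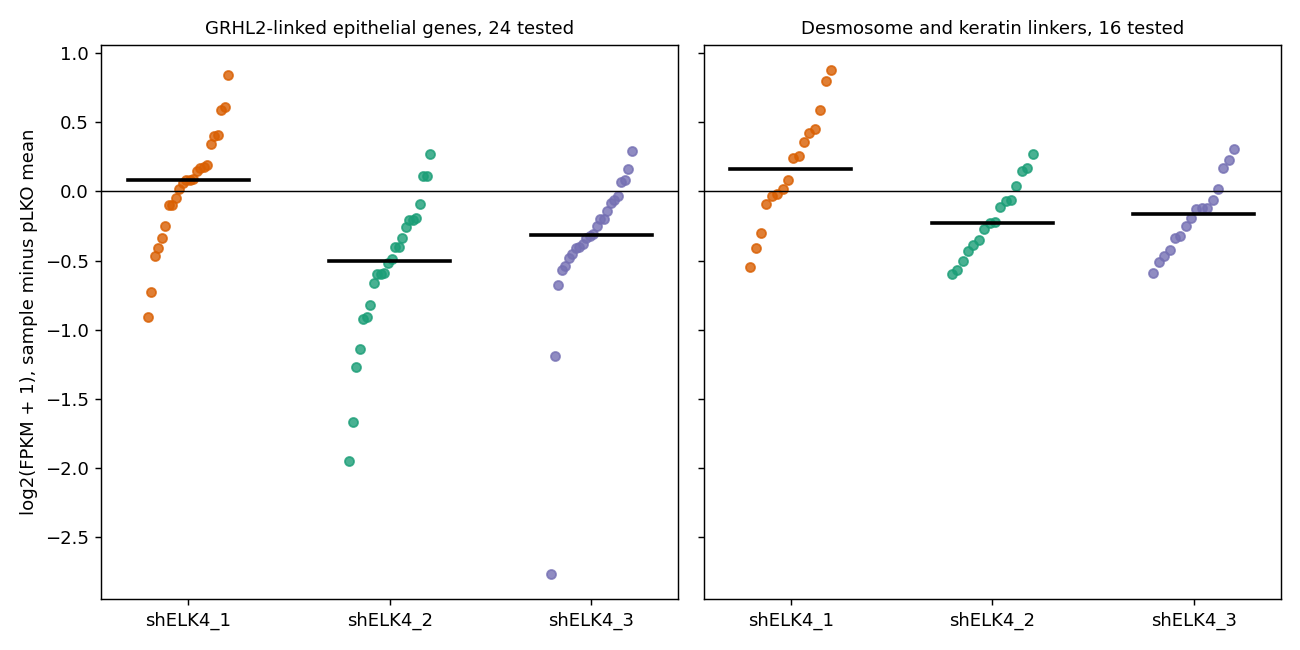
Difference of each hairpin sample from the pLKO mean on the log2(FPKM + 1) scale for 24 GRHL2-linked epithelial genes (left) and 16 desmosome and keratin linker genes (right). Each point is a gene, sorted by value within a sample, and black lines are medians, which were 0.08, −0.51 and −0.31 on the left and 0.16, −0.23 and −0.16 on the right.

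Beside the 6 keratins above, the files hold 49 others, of which 42 stayed under 1 FPKM in every sample and 5 were tested. Without KRT222, their sum was 14.5 and 14.6 FPKM in pLKO cells and 14.0, 12.5 and 8.12 in the hairpin samples. KRT222 was at 2.1 and 2.03 FPKM in pLKO cells and at 2.48, 2.13 and 2.28 in the hairpin samples. Of the 5, only KRT20, an intestinal keratin, reached an unadjusted p under 0.05 (log2 difference −0.52, standard error 0.17, adjusted p = 0.229 from limma). KRT20 was at 1.07 and 1.23 FPKM in pLKO cells and at 0.885, 0.400 and 0.277 in the hairpin samples. KRT10 was lower and KRT222 higher without overlap (log2 differences −0.22 and 0.10). Among the keratins too low to be tested, values differed in both directions, and those given here were chosen after they were seen. KRT13, a keratin of stratified mucosa, was at 0.436 and 0.274 FPKM in pLKO cells and at 2.93, 0.794 and 0.471 in the hairpin samples, highest in shELK4_1. KRT34, a hair keratin, was at 1.02 and 0.898 FPKM in pLKO cells and at 0.0633, 0.249 and 0 in the hairpin samples, all lower. KRT17 and KRT16, keratins of stratified and injured epithelia, were also lower in each hairpin sample than in either control, at 11.8% and 39.0% of the control mean.

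Of 16 genes of the cornified envelope, 15 were found and 3 reached the limit for testing. TGM1, a transglutaminase that GRHL3 is known to activate in skin, was at 1.14 and 1.42 FPKM in pLKO cells and at 0.503, 0.902 and 0.851 in shELK4_1, shELK4_2 and shELK4_3 (log2 difference −0.39, standard error 0.14, adjusted p = 0.248 from limma). All 3 tested genes, TGM1, CSTA and CNFN, were lowest in shELK4_1, the sample with the highest GRHL3. A link of these values to GRHL3 was not tested. The related factors TFCP2, TFCP2L1 and UBP1 had no unadjusted p under 0.05 from limma (0 of 3), and their groups overlapped.

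Mesenchymal markers also differed between samples, at low levels. The 12 markers summed to 15.7 and 16.4 FPKM in the controls, 16.9 for shELK4_1, 19.9 for shELK4_2 and 19.4 for shELK4_3. Most of this sum was SNAI1, at 9.53 to 11.4 FPKM. VIM, the gene for the mesenchymal filament protein vimentin, was at 0.325 and 0.221 FPKM in the controls, 0.125 for shELK4_1, 1.53 for shELK4_2 and 1.01 for shELK4_3. ZEB1, a repressor of epithelial genes, was at 0.277 and 0.356 in the controls and at 0.302, 1.48 and 0.468. ZEB2, CDH2 and DCN were at or near 0 in every sample. VIM, ZEB1, SNAI1 and COL3A1 (0.122 FPKM) were highest in shELK4_2, where GRHL2 and CDH1 were lowest, but other markers had other orders. TWIST1 was at 0.08 and 0.174 FPKM in the controls and at 0.449, 0.391 and 0.646, higher in all 3 hairpin samples and least so in shELK4_2. PDGFRB was also higher in all 3, at no more than 0.132 FPKM, while FN1 was lowest in shELK4_2, at 1.09. Of the 4 tested markers, COL1A1 was higher without overlap (log2 difference 0.18, standard error 0.11). None had an unadjusted p under 0.05 from limma (0 of 4), and the part of such markers in the keratin and grainyhead values was not tested.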

How the data were processed

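RNA-seq of 2 pLKO and 3 shELK4 samples of HCT116 was used. Poly(A)-selected RNA was sequenced on an Illumina HiSeq instrument, and the authors deposited FPKM values per gene, calculated with Cufflinks and scaled to the total mapped reads of each sample. The submitters' processing notes name Trimmomatic 0.36, HISAT2 2.0.5, Cufflinks 2.2.1 and HTSeq 0.9.1. The genome build, annotation and strand setting are not given in the sources used here. FPKM values summed to between 309139 and 319870 per sample. Among genes under 0.05 FPKM, the commonest ratio to pLKO replicate 1, a sign of single reads, was 0.898 to 0.954, so relative depth may be alike, but whole reads were not recovered and no counting error is given.

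Repeated symbols (4 rows) were dropped. The 10780 genes that reached 1 FPKM in 2 or more samples were fitted on log2(FPKM + 1) with limma 3.58.1 in R 4.3.3 (group as the only term, trended empirical Bayes, Benjamini-Hochberg adjustment across all genes). The fit was tested on simulated data with the same spread in both groups, which says nothing about groups of unlike spread such as these. p-values and standard errors rest on a spread pooled over both groups. This pooled spread joins the gap between the controls, which may be technical, with the differences between hairpins. For KRT18 the controls differed by 0.01 and the hairpin samples ranged over 0.87 on the log2(FPKM + 1) scale. The lowered ELK4 and an effect common to hairpins cannot be told apart. Named genes were the 10 members, list genes called, up to 4 list genes each with the largest differences without overlap, and the 4 nearest profiles to GRHL2 and to the member with the widest hairpin range. A gene that this rule names is not reported here. Genes named beside these were chosen after their values were seen. The members and lists were chosen with earlier results of these data known. Positions are from GENCODE release 44 on GRCh38. Alternatives were a pseudocount of 0.1, no FPKM limit, median-of-ratios scaling, the replicate number as a block, and each sample left out.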

Additional observations from a re-analysis of the deposited data

How the results depend on the processing

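The log2 differences of the 10 members moved by less than 1 SD of their own hairpin samples under all 90 combinations of member and alternative. That count is no sign of stability, because leaving out a hairpin sample cannot move the differences by more than this. For KRT8 they ranged from −0.78 to −0.56, for KRT18 from −1.31 to −0.87 and for KRT19 from −0.57 to −0.40, while that of GRHL3 ranged from −0.76 to 0.81, that of PROM2 from −0.01 to 0.67 and that of KRT23 from −0.14 to 0.35, so the sign of these 3 was not stable. The number of genes with an adjusted p under 0.05 from limma was 18, and 0 with no FPKM limit, where more genes were tested and 2270 had an unadjusted p under 0.05. It was 13 with a pseudocount of 0.1, 16 with median-of-ratios scaling, and 0 to 95 with single samples left out, 0 without either pLKO sample or without shELK4 replicate 1, 1 without shELK4 replicate 3 and 95 without shELK4 replicate 2. A control left alone is assumed to vary like the other group. With the replicate number as a block, 22 genes passed. With each shELK4 sample read as 1 hairpin, the same-numbered samples are different hairpins and controls. Their deviations correlated by 0.08 and 0.02. With 2 controls, the deviations of the controls mirror each other. On that reading, those of the shELK4 samples include differences between hairpins. These values therefore cannot show whether the numbers mark a shared batch. Among the listed genes outside the members, the count with an adjusted p under 0.05 was 0 to 1 and that at an unadjusted p under 0.05 was 3 to 22 with single samples left out. Of these 57 tested genes 19 had no overlap, where 40.1% of all tested genes had none. The number was 29 with no FPKM limit, where more of the listed genes entered, and 22 to 34 with single samples left out, where the share of all tested genes was 51.6% to 56.6%. The members without overlap numbered 3 to 7 with single samples left out, KRT8, KRT18 and KRT19 among them each time, and those past 2-fold in shELK4_2 numbered 1 to 2. The cause of these shifts was not tested. Depth is unknown, so values near 1 FPKM, such as those of PROM2, have no counting error.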
